A study of Homo sapiens with 15 samples.

Results

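THZ1 and YKL-5-124, 2 covalent inhibitors of the kinase CDK7, were compared directly in PATU-8988T cells, an established human pancreatic cancer line, after 4 h at the same dose of 100 nM. The comparison takes the 3 libraries labelled THZ1 for 4 h and the 3 labelled YKL-5-124 for 4 h, 6 of the 15 RNA sequencing libraries of the series, and was read across the 14461 genes that passed a filter on low counts. The series also has 3 libraries of cells given 0.1% DMSO, the solvent, and 3 of each compound at 24 h, and DMSO levels are given here for reference. The labels give no exposure time for DMSO, and all groups are the same line in the same medium with serum. Nothing in the labels says that replicates were separate cultures, so p-values measure the spread between these libraries, which may be technical. One line stands for the tumour type here.

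CDK7 forms the CDK-activating kinase with cyclin H and MAT1 (gene MNAT1), which phosphorylates the activating loop of cell-cycle CDKs and, as part of the general transcription factor TFIIH, the tail of RNA polymerase II at promoters. CDK9 with cyclin T releases paused polymerase, and CDK12 and CDK13 with cyclin K support elongation through gene bodies and use of distal polyadenylation sites. THZ1 is known to bind CDK12 and CDK13 as well as CDK7, whereas YKL-5-124 was described as selective for CDK7. An mRNA can fall within hours of a block in transcription only if it is short-lived, so short-lived transcripts are commonly used as an early readout of such compounds.

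The 250 bases before the annotated start are shown for FRAT2 and ZNF436, which are among the 8 largest deficits in THZ1, and for SESN1, the largest rise among well-expressed genes, because these promoters belong to genes at the extremes of the comparison. The start is that of RefSeq, and the 3 windows lie wholly before the GENCODE gene. For ZNF436 the GENCODE gene begins at base 23369442, so its window lies further upstream of that start than the others do. The sequences come from RefSeq, build GRCh38.p14, at chr10:97334730-97334979, chr1:23369837-23370086 and chr6:109094847-109095096, all on the minus strand. Each runs 5′ to 3′ along the gene, with matches to the searched motifs in capitals.
FRAT2: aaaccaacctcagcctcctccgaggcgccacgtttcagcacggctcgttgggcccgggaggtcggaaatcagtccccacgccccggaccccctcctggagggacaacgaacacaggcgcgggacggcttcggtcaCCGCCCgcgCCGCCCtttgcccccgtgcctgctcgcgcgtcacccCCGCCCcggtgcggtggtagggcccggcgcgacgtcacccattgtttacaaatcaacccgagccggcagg
ZNF436: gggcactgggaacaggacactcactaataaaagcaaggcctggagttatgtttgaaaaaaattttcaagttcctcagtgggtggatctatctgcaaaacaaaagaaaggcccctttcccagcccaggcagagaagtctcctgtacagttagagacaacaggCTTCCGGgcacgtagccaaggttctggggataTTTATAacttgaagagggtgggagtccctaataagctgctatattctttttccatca
SESN1: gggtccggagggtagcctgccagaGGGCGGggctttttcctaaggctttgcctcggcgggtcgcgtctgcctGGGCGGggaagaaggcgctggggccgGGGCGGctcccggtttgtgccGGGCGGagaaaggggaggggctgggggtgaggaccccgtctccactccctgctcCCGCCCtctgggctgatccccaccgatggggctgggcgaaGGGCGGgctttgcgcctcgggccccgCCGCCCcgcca
Capitals in these runs mark GGGCGG (SP1), CCGGAAG (ETS factors) and TATAAA (the TATA box), or their reverse complements. FRAT2 held 3 SP1 matches and SESN1 7, whereas ZNF436 held 1 ETS and 1 TATA match and no SP1 match. A match describes the letters only.

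At 4 h the libraries differed in one main way: a large set of genes stood far lower in THZ1 than in YKL-5-124. At an adjusted p below 0.05, 3172 genes were lower in THZ1 (21.9% of those tested) and 1649 were higher (11.4%), out of 33.3% in either direction. The lower genes differed by a median of 1.32 on the log2 scale and the higher genes by a median of 0.44. At least 2-fold differences were found for 2091 lower genes (14.5%) and 61 higher genes (0.422%), and 825 of the lower genes differed at least 4-fold and 285 at least 8-fold. In 97.6% of the lower calls and 93.8% of the higher calls the 3 libraries of one compound lay wholly outside the 3 of the other, against 26.3% and 17.4% of all genes tested. The calls were made on these same libraries, so such separation largely follows from a call and is not separate support for it.

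Beside DMSO the deficit lay with THZ1. Over the 3172 genes lower in THZ1 than in YKL-5-124, the median log2 difference from DMSO was -1.43 for THZ1 and -0.13 for YKL-5-124. Of all 14461 genes, 6069 (42.0%) differed between THZ1 and DMSO at 4 h, 3630 lower and 2439 higher in THZ1. Between YKL-5-124 and DMSO 75 (0.519%) differed, 67 lower and 8 higher in YKL-5-124. That second count moved with the libraries used and stood at 8 without YKL-5-124 replicate 2, 26 without YKL-5-124 replicate 3, 34 without DMSO replicate 1 and 23 without DMSO replicate 3. It was 140 with the replicate number as a block, 190 with no low-count filter, 370 with DESeq2 and 988 with each library's slope on gene length as a covariate. Both counts share the DMSO libraries.

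How the libraries were scaled to one another moved the number of genes called higher far more than the number called lower. With TMM factors, under which the bulk of genes is taken as equal, 65.8% of calls were lower. With RLE factors the share was 53.3%, with DESeq2 52.2%, with library totals 95.4% and with ribosomal protein mRNAs as the reference 99.4%. Library totals moved the median of all genes by -0.24 on the log2 scale and the ribosomal reference by -0.43. Of the 3172 lower genes, 2856 (90.04%) were called lower under all 6 scalings tried, whereas 26 of the 1649 higher genes (1.58%) were called higher under all 6. Every rise given here is therefore a rise relative to the median gene. With the ribosomal reference, GTF2H3, LARP7, POLR2E, NFKBIB, DHCR7, SPINT2, TAGLN, ZNF880 and MRPS10, all higher with TMM, came out negative by less than 0.1. Leaving out THZ1 replicate 3 or YKL-5-124 replicate 3 left 1018 or 1000 higher genes, and the lower calls numbered 2606 to 3023 over the 6 fits that each leave out a library.

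**Figure D1:**
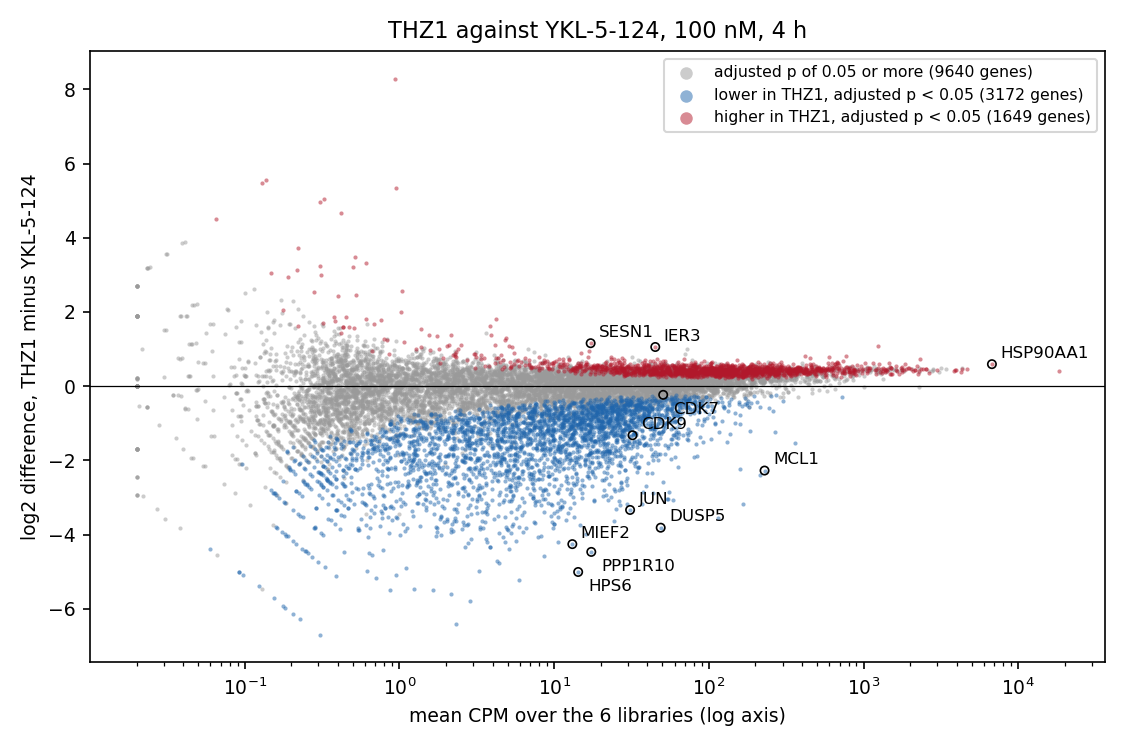
Each point is a gene, with its mean CPM, the counts scaled to a common library size, over the 6 libraries on a log axis and its log2 difference, THZ1 minus YKL-5-124, on the vertical axis. Blue points (3172) reach far below 0 over a wide range of levels, and red points (1649) form a thin band just above 0 at high levels.

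The protein-coding genes with the largest deficits at a mean of at least 5 CPM stood far lower in THZ1 than in either YKL-5-124 or DMSO. HPS6, a subunit of the BLOC-2 complex of lysosome-related organelles (chr10:102065390-102068038, a gene of 1 exon), stood at 1.52, 0.477 and 0.558 CPM in THZ1 replicates 1 to 3 and at 28.2, 25.1 and 29.98 CPM in YKL-5-124, beside 24.3, 25.5 and 29.2 CPM in DMSO. That was a 32.1-fold deficit, a log2 difference of -5.00 ± 0.30 (SE, n = 3 libraries per group, adjusted p = 1.16e-08). THZ1 replicate 1 was the highest of the 3 THZ1 libraries, and the difference was -5.72 without it.

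FADD, the adaptor that links death receptors to caspase-8 (chr11:70203163-70207390, 2 exons), measured 0.759, 0.796 and 0.512 CPM in THZ1, 20.6, 13.7 and 15.1 CPM in YKL-5-124 and 20.3, 16.7 and 19.8 CPM in DMSO. The groups were far apart, with a log2 difference of -4.57 ± 0.26 (adjusted p = 6.88e-09). PPP1R10, a nuclear regulator of protein phosphatase 1 that acts at transcription termination (chr6:30600400-30618612), measured 1.23, 1.75 and 1.54 CPM in THZ1 and 25.3, 38.7 and 35.8 CPM in YKL-5-124. Its DMSO libraries held 41.5, 40.5 and 39.1 CPM, and the log2 difference between compounds was -4.46 ± 0.20 (adjusted p = 1.29e-09). PPP1R10 overlaps MRPS18B on the opposite strand. Whether reads were counted by strand was not given in the sources used here, so such pairs cannot be told apart.

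MIEF2, an adaptor for mitochondrial fission (chr17:18260534-18266552, 4 exons), was the tightest of the set, at 1.47, 1.17 and 1.26 CPM in THZ1, 23.4, 23.4 and 28.00 CPM in YKL-5-124 and 32.6, 29.3 and 29.3 CPM in DMSO. Its log2 difference was -4.25 ± 0.16 (adjusted p = 2.34e-10). The zinc finger gene ZNF627 had the largest value of these 8, -5.21 ± 0.40, but rested on 14, 1 and 4 counts in the THZ1 libraries, and the value was -6.48 without THZ1 replicate 1. FRAT2, which binds the kinase GSK3, differed by -4.40 ± 0.35 (-5.12 without THZ1 replicate 1), CCDC71 by -4.20 ± 0.18 and the zinc finger gene ZNF436 by -4.18 ± 0.28.

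On the other side the 8 largest rises were modest. SESN1, a sestrin that restrains mTORC1 and is a known p53 target, stood at 18.1, 27.4 and 25.8 CPM in THZ1 and 13.98, 7.67 and 10.3 CPM in YKL-5-124, beside 9.77, 7.66 and 10.7 CPM in DMSO. It was 2.23-fold higher in THZ1 (log2 difference 1.16 ± 0.22, adjusted p = 0.00099). IER3, an immediate-early gene, measured 68.3, 62.2 and 52.03 CPM in THZ1, 59.3, 37.5 and 59.6 CPM in DMSO and 38.9, 23.2 and 25.6 CPM in YKL-5-124. THZ1 and DMSO overlapped, and THZ1 exceeded YKL-5-124 by 1.06 ± 0.25 (adjusted p = 0.0042). SESN1 and IER3 were the 2 protein-coding genes of at least 5 CPM that stayed higher under all 6 scalings.

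HMGN5, a nucleosome-binding protein, measured 18.7, 21.5 and 22.8 CPM in THZ1 and 14.02, 10.7 and 11.6 CPM in YKL-5-124, a log2 difference of 0.80 ± 0.15 (adjusted p = 0.000711). The rest of the set were TVP23C, a Golgi membrane protein with close copies elsewhere in the genome, at 1.08, the pseudokinase ULK4 at 0.90, the centrosomal protein FGFR1OP at 0.90, SHTN1 at 0.79 and the myosin heavy chain MYH15 at 0.78. MYH15 lost its call without THZ1 replicate 2, THZ1 replicate 3, YKL-5-124 replicate 2 or YKL-5-124 replicate 3, adjusted p from 0.0552 to 0.122. All 6 genes other than SESN1 and IER3 lost their calls with the ribosomal reference.

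**Figure D2:**
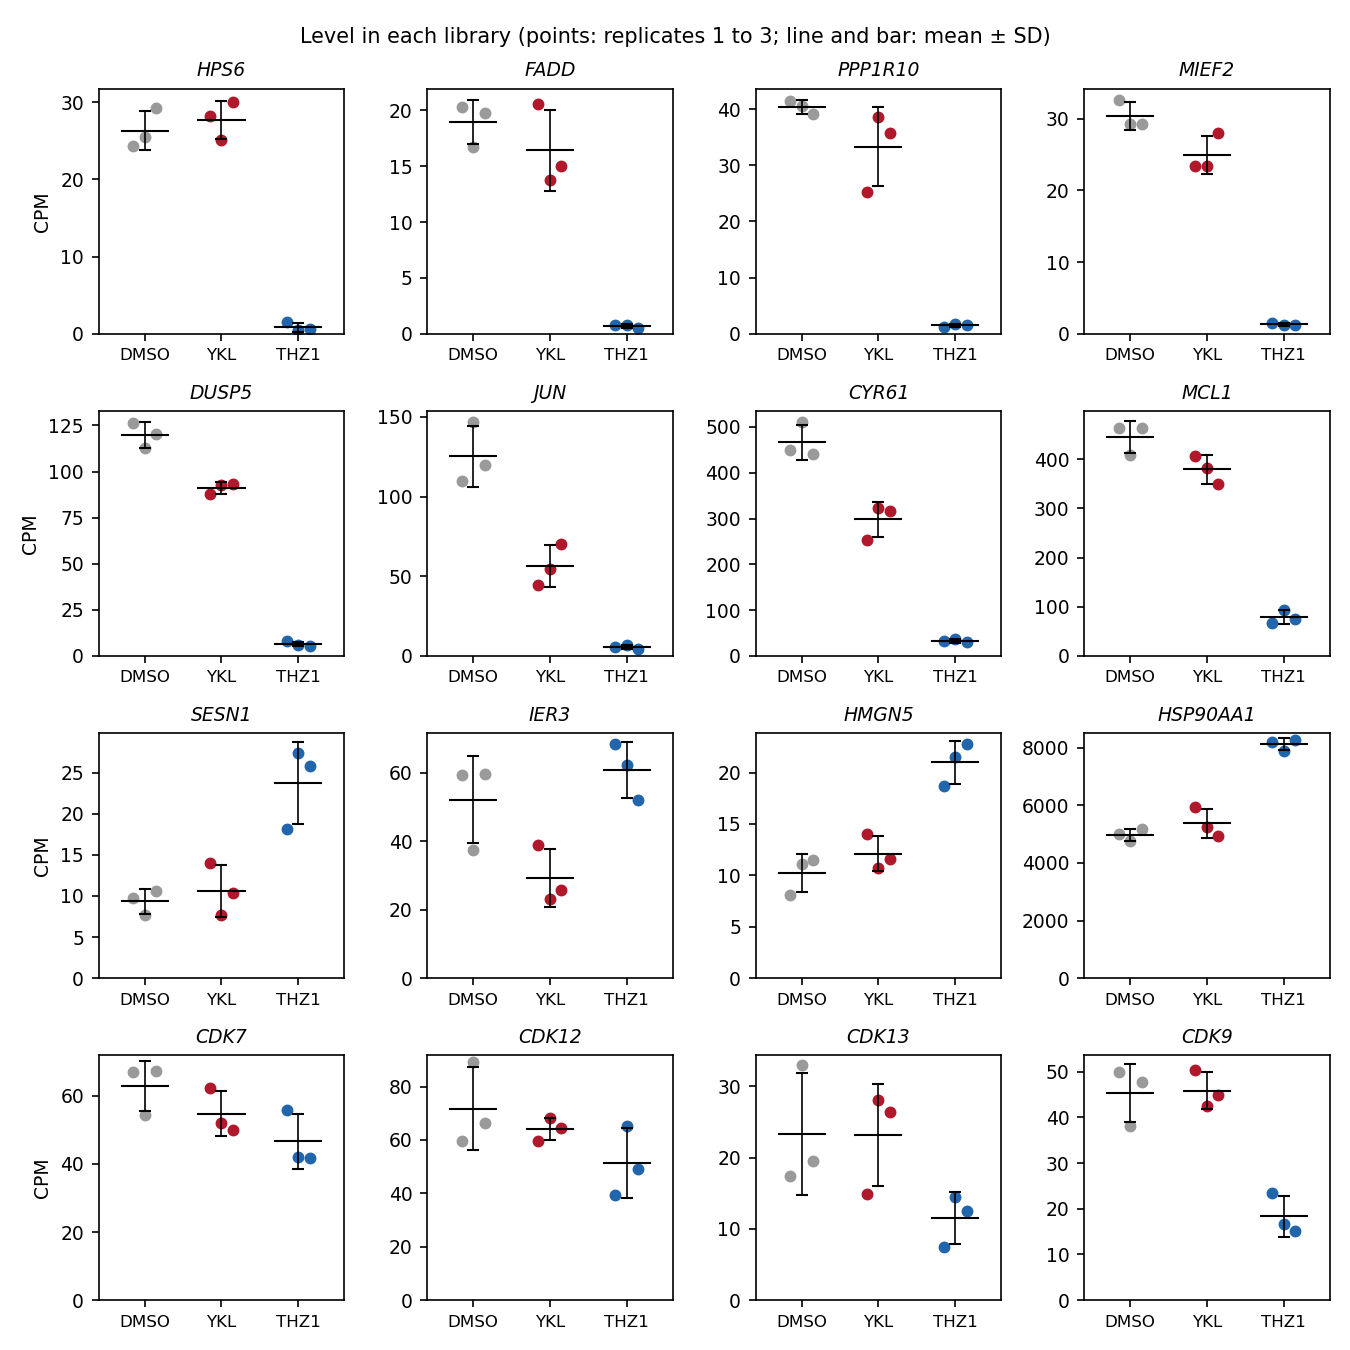
CPM of 16 genes in each DMSO, YKL-5-124 (YKL) and THZ1 library at 4 h, with points for replicates 1 to 3 and the mean and SD in black. HPS6, FADD, PPP1R10 and MIEF2 lie near 0 in THZ1, SESN1 and IER3 lie higher in THZ1 than in YKL-5-124, and CDK7 and CDK12 overlap between the compounds.

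The mRNA of the shared target showed no difference past the threshold with TMM scaling and no covariate. CDK7 measured 55.99, 42.01 and 41.9 CPM in THZ1, 62.3, 52.1 and 49.9 CPM in YKL-5-124 and 67.1, 54.3 and 67.3 CPM in DMSO. The groups overlapped, and the log2 difference was -0.23 ± 0.15 with a 95% interval of -0.55 to 0.09 (adjusted p = 0.257). That interval still allows a deficit in THZ1 as large as its lower bound. With library totals it was -0.48 (adjusted p = 0.00897) and with the ribosomal reference -0.67 (adjusted p = 0.000297), and with the length covariate -0.24 (adjusted p = 0.0179), all past the threshold. Its partners CCNH (0.25 ± 0.17, interval -0.12 to 0.62) and MNAT1 (0.25 ± 0.21, interval -0.21 to 0.71) did not pass with TMM and no covariate. They were called higher with the length covariate at 0.25 (adjusted p = 0.0306) and 0.25 (adjusted p = 0.0267).

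Of the 9 tested genes of TFIIH and the CDK-activating kinase, 1 was higher in THZ1 and none lower, with a median of 0.08. Over all tested genes the median was 0.01, with 21.9% lower and 11.4% higher, and a list whose shares lie near those is not set apart by its counts. The 1 call was GTF2H3, a core TFIIH subunit, at 0.42 ± 0.10 (adjusted p = 0.00522), which was lost with library totals (adjusted p = 0.201). With library totals 3 of the 9 were called lower instead, and with the ribosomal reference 4.

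Among the elongation kinases CDK9 and CDK13 were lower in THZ1 and CDK12 was not called. CDK9 stood at 23.4, 16.6 and 15.03 CPM in THZ1, 50.3, 42.5 and 44.8 CPM in YKL-5-124 and 50.04, 38.1 and 47.9 CPM in DMSO. It was 2.50-fold lower in THZ1 (log2 difference -1.32 ± 0.17, adjusted p = 2.07e-05), with no overlap. CDK13 measured 7.45, 14.5 and 12.5 CPM in THZ1 and 14.9, 28.1 and 26.4 CPM in YKL-5-124, a difference of -1.01 ± 0.30 (adjusted p = 0.0168) that missed the threshold without THZ1 replicate 1, YKL-5-124 replicate 2 or YKL-5-124 replicate 3, adjusted p from 0.0614 to 0.0728. CDK12, at 39.3, 65.3 and 49.2 CPM against 59.7, 68.1 and 64.6 CPM, overlapped between the compounds and differed by -0.32 ± 0.18, with an interval of -0.71 to 0.06 (adjusted p = 0.186). Without THZ1 replicate 2 that value was -0.54 (adjusted p = 0.0340), and with the length covariate -0.35 (adjusted p = 0.00252). Cyclin K, CCNK, differed by -0.23 ± 0.38 (interval -1.03 to 0.58, adjusted p = 0.676).

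Among 15 genes of the elongation kinases and of the 7SK particle that holds CDK9 inactive, 7 were lower and 1 higher (46.7% lower and 6.67% higher), with a median of -0.39. MEPCE, the enzyme that caps 7SK RNA, stood at 10.1, 8.33 and 7.12 CPM in THZ1 and 50.3, 46.96 and 51.6 CPM in YKL-5-124, beside 75.7, 78.5 and 78.2 CPM in DMSO. Its log2 difference was -2.54 ± 0.13 (adjusted p = 2.79e-09). MEPCE overlaps ZCWPW1 on the opposite strand. CCNT1, the cyclin of CDK9, held 20.1, 26.4 and 22.2 CPM in THZ1 and 85.7, 86.9 and 72.7 CPM in YKL-5-124 and differed by -1.84 ± 0.13 (adjusted p = 3.82e-08). HEXIM1, the 7SK protein that inhibits CDK9, was lower at -1.46, and cyclin T2, CCNT2, at -1.27. LARP7, which binds 7SK RNA, was the 1 higher gene at 0.33 ± 0.12 (adjusted p = 0.041), and the call was lost without THZ1 replicate 2, THZ1 replicate 3, YKL-5-124 replicate 1, YKL-5-124 replicate 2 or YKL-5-124 replicate 3, adjusted p from 0.0542 to 0.141.

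Of 17 pausing and elongation factors, 3 were lower and 4 higher (17.6% lower and 23.5% higher). ELL, a factor that speeds elongation, was lower at -1.40 ± 0.25 (adjusted p = 0.000543) and LEO1 of the PAF complex at -0.54 ± 0.20 (adjusted p = 0.0492, lost without THZ1 replicate 1, THZ1 replicate 3, YKL-5-124 replicate 1, YKL-5-124 replicate 2 or YKL-5-124 replicate 3, adjusted p from 0.0602 to 0.173). The FACT subunit SSRP1 was higher at 0.43 ± 0.08 (adjusted p = 0.000961), and TCEA1, which rescues arrested polymerase, at 0.47 ± 0.16 (adjusted p = 0.0321, lost without THZ1 replicate 1, THZ1 replicate 3, YKL-5-124 replicate 2 or YKL-5-124 replicate 3, adjusted p from 0.0584 to 0.138). Among 38 polymerase II and Mediator subunits, 8 were lower and 3 higher (21.1% lower and 7.89% higher), with a median of -0.04. MED26, which docks elongation factors on Mediator, differed by -2.69 ± 0.42 at a level of 2.65 ± 0.36 CPM (SD, n = 3) in YKL-5-124, and MED7 by -2.49 ± 0.27. POLR2E was higher by 0.37 ± 0.10 (adjusted p = 0.00781) and MED14 by 0.50 ± 0.14 (adjusted p = 0.0128), the latter lost without THZ1 replicate 2, THZ1 replicate 3 or YKL-5-124 replicate 1, adjusted p from 0.0532 to 0.0842.

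Immediate-early and other short-lived mRNAs stood lower in THZ1 as a list. Of 44 tested, 30 were lower and 1 higher (68.2% lower and 2.27% higher), against 21.9% and 11.4% of all genes, and their median log2 difference was -1.23. Relative to DMSO the medians were -1.77 for THZ1 and -0.40 for YKL-5-124. The list's summed level was 548 to 638 CPM in THZ1, 1251 to 1499 CPM in YKL-5-124 and 1910.1 to 2223 CPM in DMSO, so YKL-5-124 lay between and no groups overlapped.

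JUN, a subunit of the AP-1 transcription factor, showed the same order, with 109.6, 146 and 119.6 CPM in DMSO, 44.3, 54.7 and 70.05 CPM in YKL-5-124 and 5.55, 7.16 and 4.10 CPM in THZ1. Between the compounds it differed by -3.33 ± 0.21 (adjusted p = 1.52e-08), a 10.1-fold deficit. CYR61, a matricellular protein induced by YAP, held 449, 510.4 and 441 CPM, 253, 324 and 317 CPM and 31.7, 37.2 and 29.9 CPM in the same order and differed by -3.18 ± 0.15 (adjusted p = 1.29e-09). FOSL2 differed by -2.64, KLF4 by -2.48 and FOSL1 by -1.88. FOS (0.43), EGR1 (0.24), JUNB (-0.08), ATF3 (-0.20) and SRF (-0.08) were measured and did not pass the test.

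Sprouty proteins and some dual-specificity phosphatases are induced by ERK signalling and feed back on it. A list of dual-specificity phosphatases, Sprouty proteins and other genes of ERK output gave 19 lower and 0 higher genes of 25 (76% lower and 0% higher), with a median of -1.10. Beside DMSO the medians were -1.59 for THZ1 and -0.30 for YKL-5-124. DUSP5, a nuclear ERK phosphatase, had 7.83, 6.10 and 5.54 CPM in THZ1, 87.6, 92.9 and 93.1 CPM in YKL-5-124 and 127, 113 and 120.1 CPM in DMSO. The 3 THZ1 libraries sat far below the rest, and the difference of -3.81 ± 0.13 had the smallest adjusted p of the genes named here (8.97e-11). DUSP1 held 2.28, 2.17 and 1.72 CPM in THZ1, 33.1, 25.6 and 23.2 CPM in YKL-5-124 and 67.5, 44.6 and 70.3 CPM in DMSO, a difference of -3.73 ± 0.23 between compounds. DUSP6 was lower at -3.19 and SPRY2 at -2.56, whereas ETV4 (0.12), ETV1 (0.26) and CCND1 (0.03), which also respond to ERK, were not called.

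Of 31 genes of the NOTCH, TGF-beta and YAP responses, 16 were lower and 1 higher (51.6% lower and 3.23% higher), with a median of -0.96. AMOTL2, an angiomotin that restrains YAP, held 15.99, 22.6 and 15.2 CPM in THZ1 and 163, 231 and 237 CPM in YKL-5-124, beside 216, 335 and 236 CPM in DMSO. Its difference was -3.55 ± 0.22 (adjusted p = 1.48e-08).

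**Figure D3:**
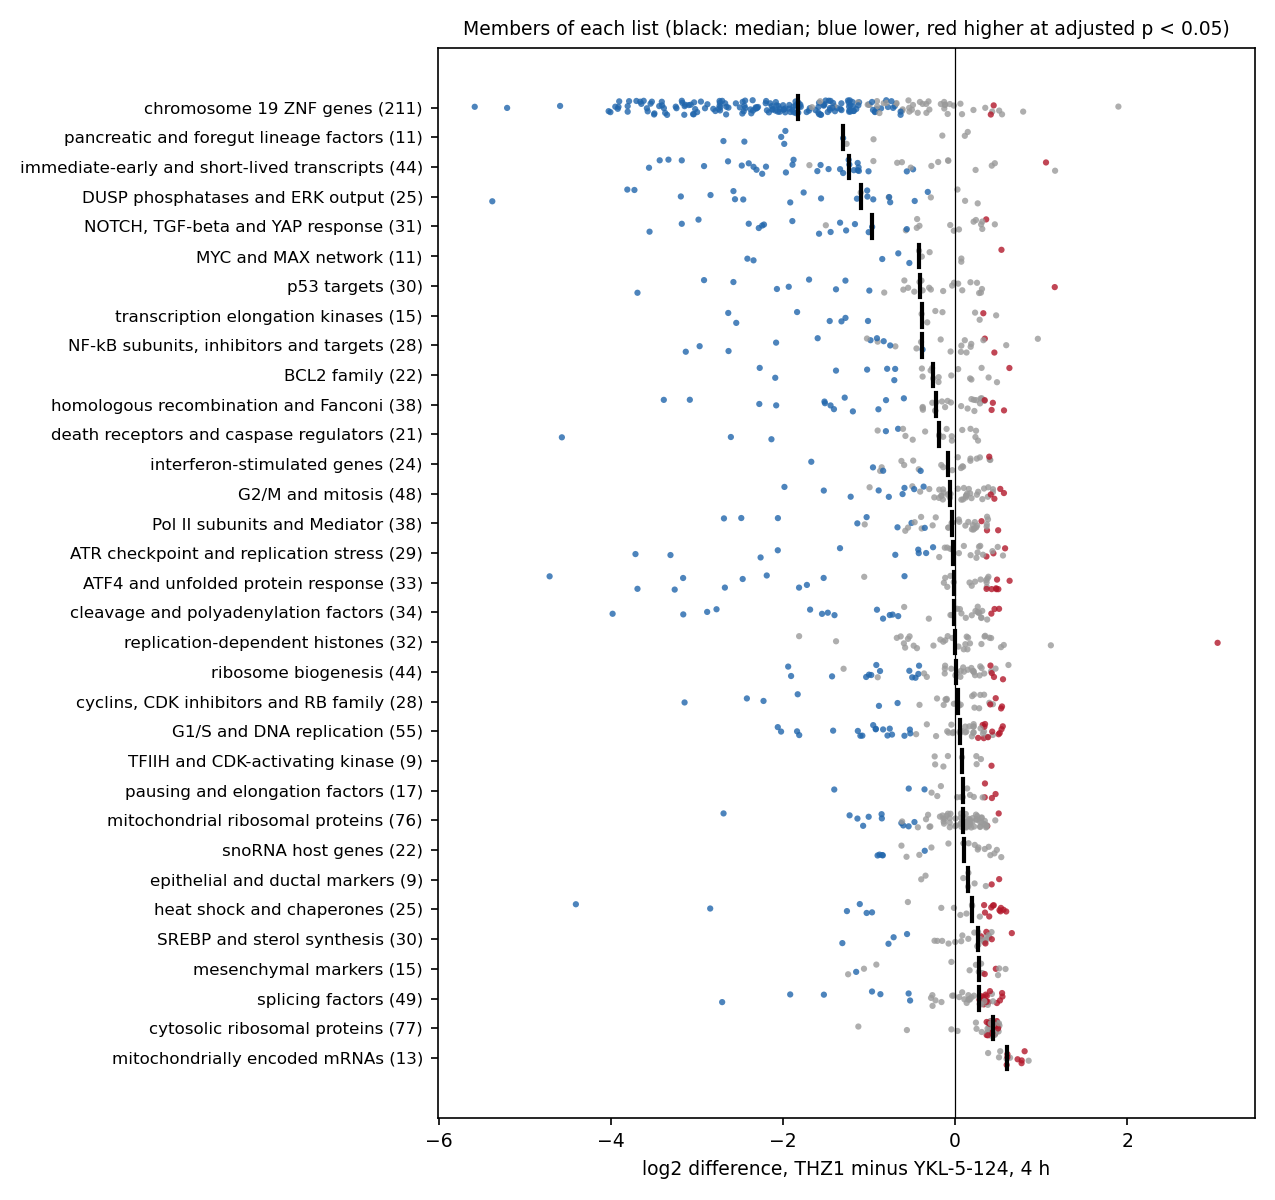
Log2 difference, THZ1 minus YKL-5-124 at 4 h, of each member of 33 gene lists, with the number tested in brackets and the list median in black. Blue points were lower and red points higher at adjusted p below 0.05. Chromosome 19 zinc finger genes, lineage factors, short-lived transcripts and the list of DUSP and ERK output genes have medians below -1.

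Of 22 BCL2 family genes, which set the threshold for apoptosis, 7 were lower and 1 higher (31.8% lower and 4.55% higher). MCL1, an anti-apoptotic member with a short-lived mRNA, stood at 66.95, 94.2 and 74.7 CPM in THZ1, 408, 382 and 349 CPM in YKL-5-124 and 464, 408 and 463 CPM in DMSO. It was 4.83-fold lower in THZ1 (log2 difference -2.27 ± 0.13, adjusted p = 6.94e-09). BCL2L1, which encodes BCL-XL, was lower at -0.71. Pro-apoptotic members moved too: BBC3 (PUMA) was lower at -1.38 ± 0.34 (adjusted p = 0.00538, and -2.01 without THZ1 replicate 1) and BAK1 at -0.70. BAX (0.04) was not called. BNIP3L, a mitophagy receptor, was higher at 0.63 ± 0.12 (adjusted p = 0.00088).

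Of 21 death receptor and caspase genes, 5 were lower and 0 higher (23.8% lower and 0% higher), so the lower share lay near that of all genes. Besides FADD, TNFRSF1A, the main TNF receptor, held 9.87, 6.52 and 6.33 CPM in THZ1 and 43.1, 47.3 and 48.3 CPM in YKL-5-124, a difference of -2.61 ± 0.17 (adjusted p = 1.89e-08).

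MYC stood at 10.2, 18.8 and 13.3 CPM in THZ1, 63.2, 76.3 and 74.4 CPM in YKL-5-124 and 96.9, 106 and 107 CPM in DMSO, and was 5.08-fold lower in THZ1 (log2 difference -2.34 ± 0.18, adjusted p = 1.27e-07). In its network of 11 tested genes 5 were lower and 1 higher (45.5% lower and 9.09% higher), while MAX, its partner, differed by 0.07 and was not called. MGA, a repressive partner of MAX, differed by -0.85 ± 0.21 and MXI1, an antagonist of MYC, by 0.54 ± 0.11 (adjusted p = 0.00151).

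In the G1/S and DNA replication list 18 of 55 genes were lower and 11 higher (32.7% lower and 20% higher), with a median of 0.06. CDC25A, the phosphatase that activates CDK2, stood at 14.5, 12.8 and 10.9 CPM in THZ1 and 61.3, 48.6 and 49.9 CPM in YKL-5-124, beside 82.3, 68.9 and 79.9 CPM in DMSO, a difference of -2.06 ± 0.14 (adjusted p = 2.89e-08). E2F8, a repressor of the E2F family, differed by -2.02 ± 0.25. POLA1, the catalytic subunit of polymerase alpha, was higher at 0.55 ± 0.12 (adjusted p = 0.002) and TYMS at 0.54 ± 0.14 (adjusted p = 0.00663, lost without THZ1 replicate 3, adjusted p = 0.0512).

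Of 48 G2/M genes, 9 were lower and 4 higher (18.8% lower and 8.33% higher), both under the shares of all genes. CDCA2, a mitotic targeting subunit of protein phosphatase 1, differed by -1.98 ± 0.14 and the kinesin KIF18A by -1.53 ± 0.10, both without overlap. The condensin subunit SMC2 was higher at 0.57 ± 0.15 (lost without THZ1 replicate 3, adjusted p = 0.0503) and the cytokinesis factor ECT2 at 0.53 ± 0.10. Of 28 genes for cyclins, CDK inhibitors or the RB family, 6 were lower and 4 higher (21.4% lower and 14.3% higher), near the shares of all genes. CCNF, the cyclin F of an SCF ubiquitin ligase, held 1.52, 2.28 and 1.77 CPM in THZ1 and 11.9, 17.8 and 19.5 CPM in YKL-5-124 and differed by -3.15 ± 0.34. CDKN1B, which encodes the CDK inhibitor p27, differed by -2.42 ± 0.16 (adjusted p = 2.03e-08), whereas RB1 was higher at 0.55 ± 0.11 and RBL2 at 0.54 ± 0.10.

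Of 38 homologous recombination and Fanconi genes, 13 were lower and 4 higher (34.2% lower and 10.5% higher), and their median was -0.22. FANCF, an intronless member of the Fanconi core complex that overlaps GAS2 on the opposite strand, held 0.854, 1.33 and 1.16 CPM in THZ1, 12.9, 12.2 and 9.91 CPM in YKL-5-124 and 15.99, 12.96 and 15.2 CPM in DMSO, a difference of -3.39 ± 0.20 (adjusted p = 1.02e-08). PALB2, which brings BRCA2 to breaks, held 0.949, 1.01 and 1.26 CPM in THZ1 and 8.52, 9.41 and 9.51 CPM in YKL-5-124 and differed by -3.08 ± 0.23 (adjusted p = 7.76e-08). BRCA2 was lower at -1.52 and BLM at -1.41. BRCA1 differed by -0.09 and FANCD2 by 0.31, and neither was called. RAD51AP1 was higher at 0.57 ± 0.16 (adjusted p = 0.0139, lost without THZ1 replicate 1, YKL-5-124 replicate 2 or YKL-5-124 replicate 3, adjusted p from 0.0577 to 0.0668) and MRE11A at 0.44 ± 0.12 (lost without THZ1 replicate 3, adjusted p = 0.0586).

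Of 29 genes of the ATR checkpoint and replication stress response, 10 were lower and 3 higher (34.5% lower and 10.3% higher). ETAA1, an activator of ATR, held 0.569, 0.849 and 0.884 CPM in THZ1, 11.1, 10.1 and 9.16 CPM in YKL-5-124 and 17.3, 15.1 and 16.2 CPM in DMSO, a difference of -3.72 ± 0.21 (adjusted p = 8.23e-09). WEE1, the kinase that restrains CDK1, held 4.75, 4.19 and 4.75 CPM against 38.9, 51.7 and 45.3 CPM and differed by -3.31 ± 0.20 (adjusted p = 1.25e-08). HLTF was higher at 0.58 ± 0.12 and TIMELESS at 0.45 ± 0.11.

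Zinc finger genes of chromosome 19, most of which encode KRAB repressors in clusters, had the lowest median of the lists. Of 211 tested, 165 were lower and 2 higher (78.2% lower and 0.948% higher), 152 of them at least 2-fold lower, with a median of -1.82. Beside DMSO the medians were -1.90 for THZ1 and -0.11 for YKL-5-124. Their summed level was 616 to 724 CPM in THZ1, 1663 to 1822 CPM in YKL-5-124 and 1762 to 1991 CPM in DMSO, so YKL-5-124 and DMSO overlapped and THZ1 lay apart. The lower count stood between 153 and 161 when any of the 6 libraries was left out and between 162 and 175 under the other scalings. ZNF526 differed by -5.59 ± 0.68 from 0, 4 and 1 counts in the THZ1 libraries, and by -7.16 without THZ1 replicate 2. The 2 higher members were ZNF738 at 0.45 ± 0.13 (lost without THZ1 replicate 3, adjusted p = 0.0739) and ZNF880 at 0.42 ± 0.13 (lost without THZ1 replicate 2, THZ1 replicate 3, YKL-5-124 replicate 1, YKL-5-124 replicate 2 or YKL-5-124 replicate 3, adjusted p from 0.0537 to 0.091). Members of this family share sequence, and how reads with several matches were counted was not stated in the labels.

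RNA processing lists had medians from -0.01 to 0.28, with large deficits among some members. Of 34 cleavage and polyadenylation genes, 13 were lower and 3 higher (38.2% lower and 8.82% higher), and 8 were at least 2-fold lower. INTS5, a scaffold of the Integrator complex (chr11:62646848-62653302, 2 exons), held 2.80, 1.91 and 1.02 CPM in THZ1 and 30.5, 27.9 and 32.4 CPM in YKL-5-124, a difference of -3.98 ± 0.27 (adjusted p = 3.94e-08). CSTF1, a cleavage stimulation factor, held 7.07, 5.62 and 5.03 CPM against 57.5, 52.1 and 49.05 CPM and differed by -3.16 ± 0.15. NUDT21, the small subunit of cleavage factor I, was higher at 0.51 ± 0.11 and the poly(A) polymerase PAPOLA at 0.46 ± 0.12.

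Of 49 splicing factors, 17 were higher and 7 lower (14.3% lower and 34.7% higher), with a median of 0.28 (-0.16 with the ribosomal reference). The higher count was 1 with library totals and 8 without THZ1 replicate 3. HNRNPA2B1 rose by 0.55 ± 0.09 (adjusted p = 0.000232) and HNRNPA1 by 0.55 ± 0.11 under TMM. The kinases CLK2 and CLK4, which phosphorylate SR proteins, were lower instead. CLK2 held 7.07, 9.60 and 6.89 CPM in THZ1, 28.3, 31.5 and 29.1 CPM in YKL-5-124 and 20.7, 16.1 and 18.2 CPM in DMSO, so the compounds lay on opposite sides of DMSO, and it differed by -1.92 ± 0.16 (adjusted p = 2.53e-07). CLK4 differed by -1.53 ± 0.17. Among 22 snoRNA host genes 5 were lower and 0 higher (22.7% lower and 0% higher), led by SNHG10 (-0.90 ± 0.25) and SNHG15 (-0.88 ± 0.24).

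In the ATF4 and unfolded protein list 11 of 33 genes were lower and 7 higher (33.3% lower and 21.2% higher). The lower ones included CHAC1, a glutathione-degrading ATF4 target, which differed by -4.71 ± 0.55 on 16, 2 and 1 counts in THZ1 (-6.68 without THZ1 replicate 1), and SESN2 at -3.69 ± 0.22. The higher ones were led by the ER chaperones HSP90B1 (0.63 ± 0.13) and PDIA6 (0.50 ± 0.10). SESN2 thus lay opposite to its relative SESN1, with 0.997, 1.33 and 0.931 CPM in THZ1 and 12.1, 14.5 and 15.5 CPM in YKL-5-124.

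Of 25 heat shock and chaperone genes, 11 were higher and 6 lower (24% lower and 44% higher), with a median of 0.20. With library totals 2 were higher and 7 lower (median -0.05), and lower genes numbered 3 without THZ1 replicate 3. The stress-inducible co-chaperone DNAJB1 held 15.9, 14.2 and 10.4 CPM in THZ1, 95.3, 93.7 and 103 CPM in YKL-5-124 and 120.1, 114 and 113 CPM in DMSO, a difference of -2.85 ± 0.15 (adjusted p = 3.46e-09). DNAJB4 was lower at -1.26 ± 0.35 (lost without THZ1 replicate 2 or THZ1 replicate 3, adjusted p from 0.0502 to 0.058). The abundant chaperone HSP90AA1 held 8208, 7889.8 and 8276 CPM in THZ1 and 5937, 5249 and 4955 CPM in YKL-5-124, a difference of 0.59 ± 0.09 (adjusted p = 0.000157), and HSPB1 was higher at 0.56 ± 0.17 (lost without THZ1 replicate 2, THZ1 replicate 3, YKL-5-124 replicate 1 or YKL-5-124 replicate 2, adjusted p from 0.0606 to 0.0861).

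Of 30 p53 targets, 9 were lower and 1, SESN1, higher (30% lower and 3.33% higher). BTG2, an antiproliferative gene with a short-lived mRNA, differed by -2.92 ± 0.25 (adjusted p = 3.26e-07). Of 28 NF-kB genes, 10 were lower and 2 higher (35.7% lower and 7.14% higher), and the lower count was 6 without THZ1 replicate 3. NFKBIE, an inhibitor of NF-kB, differed by -3.13 ± 0.35 (-4.01 without THZ1 replicate 1) and IRF1 by -2.97 ± 0.26. The higher pair were SOD2 at 0.46 ± 0.16 (lost without THZ1 replicate 2, THZ1 replicate 3, YKL-5-124 replicate 1, YKL-5-124 replicate 2 or YKL-5-124 replicate 3, adjusted p from 0.0553 to 0.171) and NFKBIB at 0.35 ± 0.10 (lost without YKL-5-124 replicate 2, adjusted p = 0.0914). Of 24 interferon-stimulated genes, 4 were lower and 1 higher (16.7% lower and 4.17% higher), both under the shares of all genes, the lower ones led by IFIT5 at -1.67 ± 0.24 and the RNA sensor DDX58 at -0.95 ± 0.18.

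In the sterol list 5 of 30 genes were higher and 4 lower (13.3% lower and 16.7% higher), and the higher count was 2 without THZ1 replicate 3 or YKL-5-124 replicate 1 and 0 with library totals. INSIG1, which retains SREBP in the ER, was lower at -0.77 ± 0.18 (adjusted p = 0.00402). The desaturase SCD was higher at 0.66 ± 0.22 (lost without THZ1 replicate 2, THZ1 replicate 3, YKL-5-124 replicate 1 or YKL-5-124 replicate 3, adjusted p from 0.0744 to 0.196) and DHCR7 at 0.43 ± 0.11.

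Ribosomal and mitochondrial mRNAs sat on the higher side, and their counts depended on scaling and on single libraries. Of 77 cytosolic ribosomal protein genes, 29 were higher and 0 lower (0% lower and 37.7% higher), with a median of 0.44. The count was 7 without THZ1 replicate 1, 41 without THZ1 replicate 2, 6 without YKL-5-124 replicate 2, 12 without YKL-5-124 replicate 3 and 2 with library totals. RPLP2 held 1681, 1726 and 1878 CPM in THZ1 and 1059.7, 1250.4 and 1429.5 CPM in YKL-5-124, a difference of 0.50 ± 0.11 (adjusted p = 0.00353), and RPS13 differed by 0.50 ± 0.15 (lost without THZ1 replicate 1, YKL-5-124 replicate 2 or YKL-5-124 replicate 3, adjusted p from 0.0591 to 0.0813). As a share of all counts, ribosomal protein mRNAs took 12.7% ± 1.94 (SD, n = 3) in THZ1 and 11.1% ± 1.01 in YKL-5-124, beside 10.6% ± 1.43 in DMSO (exact permutation p = 0.3, two-sided, THZ1 against YKL-5-124). The smallest p that 3 against 3 libraries allow is 0.1.

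All 13 mitochondrially encoded mRNAs had positive differences under TMM, 7 of them past the threshold, with a median of 0.61, and the median stayed positive (0.21) with the ribosomal reference. The number past the threshold was 4 without THZ1 replicate 2 or YKL-5-124 replicate 1, 3 with library totals and 0 with the ribosomal reference. MT-CYB differed by 0.77 ± 0.22 (lost without THZ1 replicate 2 or YKL-5-124 replicate 1, adjusted p from 0.0569 to 0.0855) and MT-ND4 by 0.81 ± 0.29 (lost without THZ1 replicate 2, THZ1 replicate 3, YKL-5-124 replicate 1, YKL-5-124 replicate 2 or YKL-5-124 replicate 3, adjusted p from 0.0585 to 0.218). Their libraries overlapped, with MT-CYB at 487, 1041 and 719.6 CPM in THZ1 and 356, 456 and 501 CPM in YKL-5-124. Of 76 mitochondrial ribosomal protein genes encoded in the nucleus, 11 were lower and 2 higher (14.5% lower and 2.63% higher); MRPS17 differed by -1.23 ± 0.22, MRPL46 by -1.14 ± 0.29, MRPL48 by 0.51 ± 0.14 (lost without THZ1 replicate 1 or YKL-5-124 replicate 2, adjusted p from 0.0517 to 0.055) and MRPS10 by 0.37 ± 0.09.

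Ribosome biogenesis factors gave 13 lower and 4 higher genes of 44 (29.5% lower and 9.09% higher). The intronless gene RRS1, which overlaps ADHFE1, held 8.83, 11.1 and 8.005 CPM in THZ1 and 31.2, 34.9 and 41.2 CPM in YKL-5-124 and differed by -1.94 ± 0.16 (adjusted p = 2.51e-07), and UTP3, also a gene of 1 exon, by -1.91 ± 0.15. The helicase DDX21 was higher at 0.56 ± 0.11 and nucleophosmin, NPM1, at 0.45 ± 0.17 (adjusted p = 0.0472, lost without THZ1 replicate 1, THZ1 replicate 3, YKL-5-124 replicate 2 or YKL-5-124 replicate 3, adjusted p from 0.0761 to 0.165). Of 32 replication-dependent histone genes, whose mRNAs lack a poly(A) tail, 1 was higher and 0 lower (0% lower and 3.13% higher, against 21.9% and 11.4% of all genes). The 1 call, HIST1H2BG, rested on 7, 9 and 0 counts in THZ1 and 0, 1 and 1 in YKL-5-124. The higher count was 0 without THZ1 replicate 1, THZ1 replicate 2, YKL-5-124 replicate 2 or YKL-5-124 replicate 3. The lower count was 3 with library totals, 5 with the ribosomal reference, 2 without THZ1 replicate 1 and 1 without YKL-5-124 replicate 2. Levels were low, and the 32 genes summed to 106 to 161 CPM in THZ1 and 97.9 to 166 CPM in YKL-5-124.

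Of the 11 lineage factors of foregut and pancreas tested, 6 were lower and 0 higher (54.5% lower and 0% higher), with a median of -1.30, although most were at low levels. GATA4 held 2.66, 1.38 and 1.44 CPM in THZ1, 8.56, 10.8 and 10.7 CPM in YKL-5-124 and 10.04, 13.3 and 9.73 CPM in DMSO, a difference of -2.45 ± 0.24 (adjusted p = 1.42e-06), and FOXA1 differed by -2.69 ± 0.41 at 1.95 ± 0.649 CPM (SD, n = 3) in YKL-5-124. KLF5 was lower at -1.30, SOX9 at -2.02 and PDX1 at -1.99. HNF4G (0.11) and TEAD1 (0.15) were not called.

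Markers of an epithelial line were present only in part. In bulk RNA, fewer cells of a type and less RNA per cell cannot be told apart. Of 20 epithelial and ductal markers 9 were tested, with KRT8 and KRT18 abundant but KRT19 at 0 counts in 5 of the 6 libraries and at 1 in the other, and CDH1 at 3 to 9 counts. VIM, a mesenchymal marker, held 214, 222 and 216 CPM in THZ1 and 157, 149.8 and 163 CPM in YKL-5-124. It was higher in THZ1 at 0.47 ± 0.08 (adjusted p = 0.000347), as was TAGLN at 0.34 ± 0.10 (lost without THZ1 replicate 3, adjusted p = 0.0557). Of 15 mesenchymal markers 2 were higher and 1 lower (6.67% lower and 13.3% higher). The higher count was 5 with RLE factors, with DESeq2 or without THZ1 replicate 1, and 0 with the ribosomal reference. EPCAM was higher at 0.51 ± 0.16 (lost without THZ1 replicate 3, YKL-5-124 replicate 2 or YKL-5-124 replicate 3, adjusted p from 0.0555 to 0.106) and SPINT2 at 0.43 ± 0.14 (lost without THZ1 replicate 1, YKL-5-124 replicate 2 or YKL-5-124 replicate 3, adjusted p from 0.0773 to 0.122), the 2 epithelial calls. Of 20 stromal, endothelial and immune markers 6 were tested and 0 called. Those tested summed to 3.44 to 4.75 CPM in THZ1 and 3.25 to 6.96 CPM in YKL-5-124, and CD3E, CD68 and DCN were at 0 in all 6 libraries. Of 17 acinar, islet and liver markers 2 were tested and 0 called. Those 2 summed to 2.33 to 3.84 CPM in THZ1 and 2.33 to 2.91 CPM in YKL-5-124, and PRSS1, CPA1, INS and GCG were at 0.

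**Figure D4:**
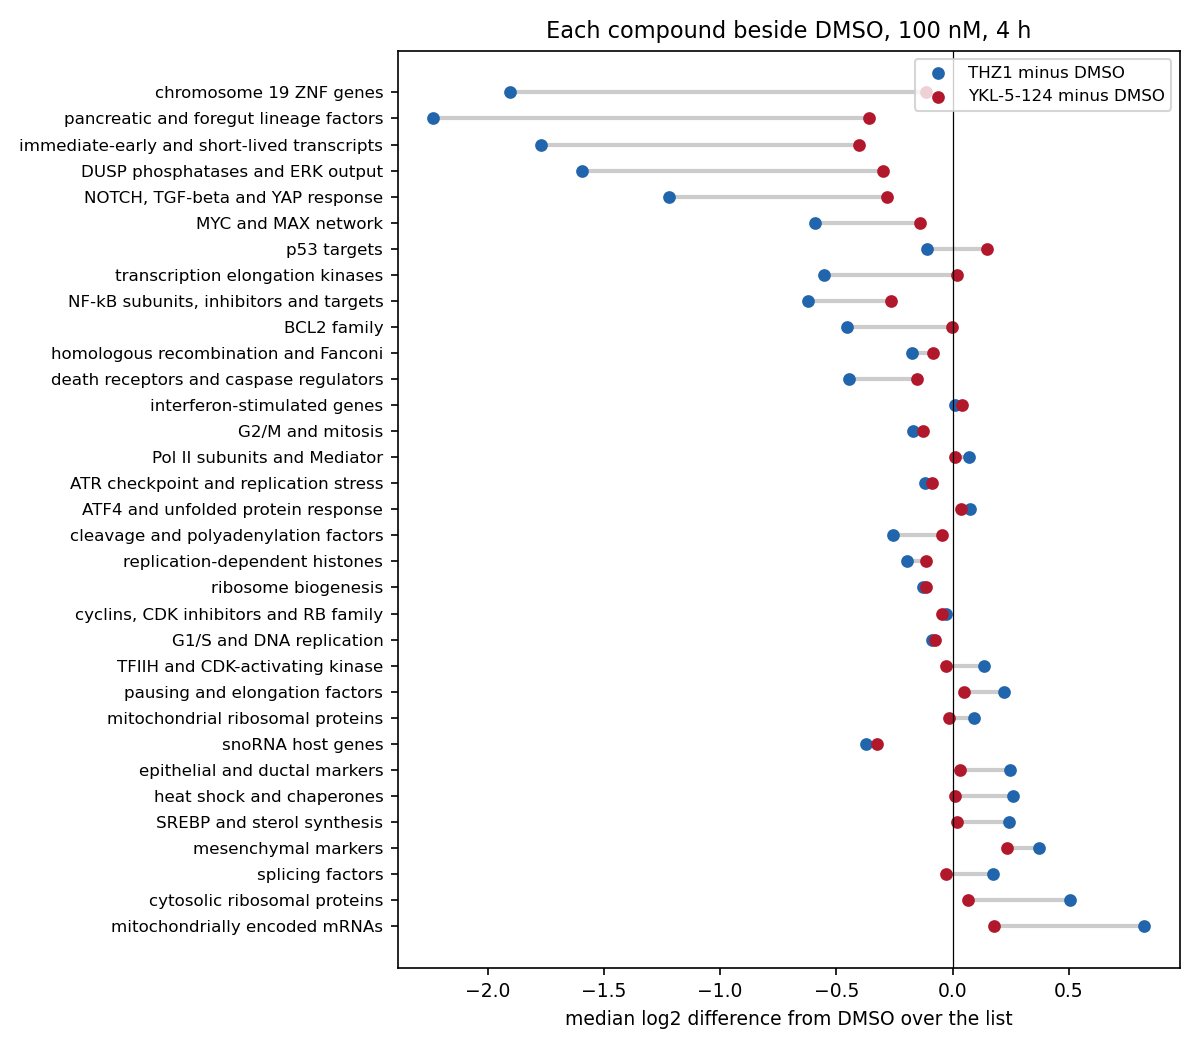
Median log2 difference from the same 3 DMSO libraries over each of 33 gene lists at 4 h, for THZ1 in blue and YKL-5-124 in red. For short-lived transcripts the points lie at -1.77 and -0.40 and for chromosome 19 zinc finger genes at -1.90 and -0.11.

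Gene architecture went with the direction of the difference. Among 12212 protein-coding genes, 23.2% were lower and 12.9% higher in THZ1. Of the 229 genes whose annotated transcripts have at most 1 exon, 48.5% were lower, of the 363 with 2 exons 54.3%, of those with 3 to 5 exons 36.4%, with 6 to 10 exons 22.4%, with 11 to 20 exons 17.7% and with 21 or more 10.8%. Higher genes ran the other way, from 3.93% of 1-exon genes to 15.5% of genes with 21 or more. Leaving out the chromosome 19 zinc finger genes gave 53.9% for 2 exons and 34.1% for 3 to 5, with little change elsewhere. Relative to the mean of DMSO, the median 1-exon gene stood at -0.61, -0.64 and -0.79 on the log2 scale in the THZ1 libraries and at -0.14, -0.17 and -0.13 in the YKL-5-124 libraries.

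Genomic length showed a gradient too. With genes in 5 equal bins of span, 28.7% were lower in the shortest bin (up to 10.99 kb) and 14.3% in the longest (from 98.5 kb). Within that shortest bin, genes of 1 or 2 exons were lower in 51.0% of cases, those of 3 to 5 in 32.5% and those of 6 or more in 14.8%. Within the longest bin, those of 3 to 5 exons were lower in 26.1% of cases and those of 6 or more in 13.6%. Among genes of 6 or more exons the shortest and longest bins were thus close. Level also varied with these classes: the median over the 6 libraries was 3.15 CPM for 1-exon genes and 26.7 CPM for genes of 21 or more exons. With genes in 5 equal bins of their level in DMSO, the most abundant bin (from 76.6 CPM) had 9.21% lower and 35.6% higher, the middle bin 32.9% lower and 7.70% higher, and the least abundant bin (up to 3.26 CPM) 17.2% lower and 1.39% higher. The part of level in the exon classes was not tested.

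**Figure D5:**
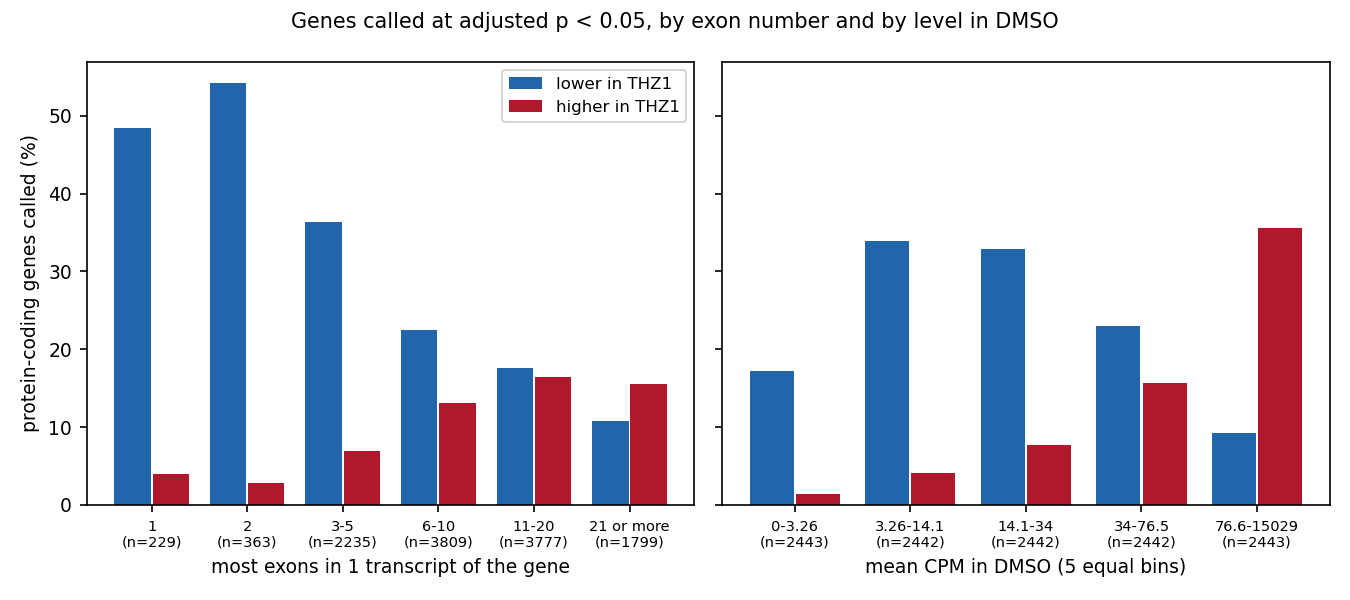
Percent of protein-coding genes called lower (blue) or higher (red) in THZ1 than in YKL-5-124 at 4 h, by the most exons in a transcript (left) and by 5 equal bins of the mean CPM in DMSO (right), with the number of genes under each bar. The lower share declines from 48.5% and 54.3% at 1 and 2 exons to 10.8% at 21 or more, and the higher share reaches 35.6% in the most abundant bin.

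Promoters were compared by simple matches on both strands in RefSeq windows from 250 bases before to 50 after the start, found by symbol for 9481 of the tested protein-coding genes. The CCAAT box (CCAAT) was present in 36.4% of all these windows, in 39.9% of those of lower genes, in 46.3% of those of genes at least 4-fold lower and in 36.2% of those of higher genes. The ETS motif (CCGGAAG) gave 19.7%, 23.3%, 27.1% and 19.3% in the same order. Zinc finger genes held many of these: among genes at least 4-fold lower, 55.8% of ZNF windows and 43.1% of the others had a CCAAT box, and 44.2% and 21.4% an ETS motif. Over all windows outside the ZNF family the shares were 35.9% and 18.8%. An ETS motif was in 1869 of all 9481 windows and in 1713 of the 9110 outside the family, and a CCAAT box in 3454 and 3273. The 4-fold lower ZNF windows were not tested against all ZNF windows, so their shares may be those of the family. SP1 (GGGCGG) gave 71.6% of all windows, 70.9% of lower, 69.4% of 4-fold lower and 75.04% of higher. The other motifs searched were the TATA box (TATAAA), AP-1 (TGANTCA), the E-box (CACGTG), and CRE, E2F, NRF1, YY1 and NF-kB, each in at most 11.9% of all windows. The E-box was in 10.1% of all windows and 7.10% of those of genes at least 4-fold lower, and the TATA box in 5.13% and 5.83%. The median GC content was 65.7% over all windows, 63.3% for genes 4-fold lower and 66.3% for higher genes.

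The same pair of compounds was compared at 24 h in 6 other libraries. There 6376 genes were lower in THZ1 (44.1%) and 4601 higher (31.8%) with TMM, and 9927 lower and 1998 higher with library totals. Of the 3172 genes lower at 4 h, 2630 (82.9%, which is 41.2% of the 24 h list) were lower at 24 h and 159 (5.01%) higher. Of the 1649 higher at 4 h, 1290 (78.2%, 28.0% of the 24 h list) were higher and 200 (12.1%) lower. A test of the change between times, the interaction of compound and time, passed for 8331 genes (57.6%), 3842 in the positive direction (26.6%) and 4489 in the negative (31.0%). MYC, at -2.34 at 4 h, stood at 0.63 at 24 h, an interaction of 2.97 (adjusted p = 1.02e-07 in edgeR), and JUN, at -3.33, stood at 0.30, an interaction of 3.63 (adjusted p = 3.58e-08). TNFRSF1A went from -2.61 to -4.33 (interaction -1.72, adjusted p = 2.43e-05) and CDC25A from -2.06 to -4.36 (interaction -2.30, adjusted p = 2.96e-07). The 24 h values move with scaling: with library totals MYC stood at -0.66 (adjusted p = 0.00448) and JUN at -0.98 (adjusted p = 0.000461) at 24 h, with interactions of 1.93 and 2.599. With the ribosomal reference they stood at -2.18 and -2.49, with interactions of 0.56 (adjusted p = 0.23) and 1.27. The directions for TNFRSF1A and CDC25A held under all 9 other settings fitted. These 4 were picked from the named genes after their values were seen.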

How the data were processed

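Total RNA of PATU-8988T cells was sequenced in 15 libraries, 3 in each of 5 groups. The values are counts of reads for 58676 genes, deposited by the authors without scaling. The submitters' processing notes name featureCounts 1.5.0-p3 and STAR 2.6.1d, the build GRCh38, and also DESeq2 1.24.0. The strand setting and the handling of reads with several matches were not given there. All 58676 gene IDs were found in GENCODE release 29, which gave exon numbers. Groups and replicate numbers came from the labels.

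The 6 libraries held 18464691 to 22869590 counts. Genes were kept by filterByExpr in edgeR 4.0.16 (R 4.3.3) and tested with its quasi-likelihood F test on all 15 libraries, TMM factors and the group as the only factor, with Benjamini-Hochberg adjustment over 14461 genes and a threshold of 0.05. CPM use the TMM-scaled library sizes. SE values are those of log2 differences. DESeq2 1.42.0 was an alternative. On simulated counts for this comparison (14194 genes) the test found 20.9% of the genes changed 1.5-fold, 64.2% at 2-fold and 92.4% at 4-fold, and called 7 unchanged genes. In the simulation 67, 67 and 66 genes were changed at these folds, about equally up and down, and all others were equal between the compounds. It therefore does not measure errors that come from scaling or from a broad shift in 1 direction. Replicates of a group differed by more than sampling noise, and none were merged.

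The genes named were the 8 largest differences on each side among protein-coding genes averaging 5 CPM or more whose libraries did not overlap, up to 2 called members on each side of each of 35 lists with a mean of at least 1 CPM, and 7 CDK and cyclin genes whatever their p. Other list members given with a log2 value alone were chosen after their values were seen. Members and lists were chosen with earlier results of these data known, and no list was tested as a set. Of the 116 named genes, 39 overlap another tested gene. A few genes that the rule selects, and 1 promoter sequence, are not reported here. Same-numbered THZ1 and YKL-5-124 libraries were not treated as pairs. 1 compound pair was compared. Alternatives tried are given in the closing section.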

Additional observations from a re-analysis of the deposited data

Results flagged for a closer look

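For 17 genes, the difference between the compounds was not the same at 4 h and 24 h by the interaction test in edgeR (adjusted p below 0.05). Over all 14461 genes tested 8331 (57.6%) passed, so a pass alone does not set a gene apart. Of the 8 largest 4 h differences on each side, MIEF2, ZNF436, TVP23C, ULK4, FGFR1OP and MYH15 did not pass (adjusted p from 0.0505 to 0.365). These values use TMM scaling. Differences are log2, THZ1 minus YKL-5-124, and the interaction is the 24 h value minus the 4 h value. The deficit in THZ1 was smaller at 24 h for ZNF627 (interaction 2.94, from -5.21 to -2.26), HPS6 (1.71, from -5.00 to -3.29), FADD (1.87, from -4.57 to -2.71), PPP1R10 (2.09, from -4.46 to -2.38), FRAT2 (2.28, from -4.40 to -2.12) and CCDC71 (3.12, from -4.20 to -1.08). These genes were picked as the largest 4 h deficits, and the interaction reuses those 4 h values. SESN1, IER3, HMGN5 and SHTN1 were likewise picked as the largest 4 h rises. A smaller difference at 24 h can therefore follow in part from the choice, and how far was not tested. On the higher side SESN1 came down (-0.95, from 1.16 to 0.21), while IER3 (1.80, from 1.06 to 2.86), HMGN5 (1.97, from 0.80 to 2.76) and SHTN1 (0.79, from 0.79 to 1.57) went further up. The kinases went lower in THZ1 at 24 h: CDK7 by an interaction of -3.46 (from -0.23 to -3.69), CDK12 of -2.78 (from -0.32 to -3.10) and CDK13 of -1.06 (from -1.01 to -2.07, adjusted p = 0.0494). Chosen after their values were seen, MYC (2.97, from -2.34 to 0.63) and JUN (3.63, from -3.33 to 0.30) were positive at 24 h with TMM, while TNFRSF1A (-1.72, from -2.61 to -4.33) and CDC25A (-2.30, from -2.06 to -4.36) went lower. Scaling moved several of these. With library totals the 24 h difference was -0.66 for MYC, -0.98 for JUN and -1.07 for SESN1, HPS6 lost its call (interaction 0.69, adjusted p = 0.132) and SHTN1 gave -0.26 (adjusted p = 0.441). With the ribosomal reference the interaction turned negative for HPS6, FADD, PPP1R10, IER3, HMGN5 and SHTN1, and MYC (0.56, adjusted p = 0.23), ZNF627 (0.68, adjusted p = 0.231) and FRAT2 (0.02) lost the call. SESN1 missed the threshold with RLE factors, DESeq2 and upper-quartile factors (adjusted p from 0.0624 to 0.0929), and CDK13 with those and with a mean count of at least 10 (adjusted p from 0.0644 to 0.171). JUN, CCDC71, CDK7, CDK12, TNFRSF1A and CDC25A kept call and direction of the interaction under all 9 other settings, which were chosen after seeing the data and leave out no library. The share of counts on ribosomal protein mRNAs was 20.7% to 23.1% in THZ1 and 6.47% to 8.66% in YKL-5-124 at 24 h, and its part in these values was not tested.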

How the results depend on the processing

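The number of genes lower in THZ1 stayed within 1.5 times of 3172 under all settings but a test against a 1.5-fold minimum, which left 1825 lower, 31 higher and 1856 in all. Higher genes numbered 2524 with RLE factors, 199 with library totals, 26 with the ribosomal reference, 2833 with DESeq2, 1026 with only the 6 libraries, 3547 with each library's slope on gene length as a covariate (7696 calls in all) and 1000 to 1516 leaving out a library. With library totals, 1998 genes were higher and 9927 lower at 24 h, and 1558 and 7917 passed for the interaction.

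Settings for the DMSO comparisons were chosen after seeing the data. YKL-5-124 against DMSO gave 370 calls with DESeq2, 190 with no low-count filter, 140 with the replicate block, 988 with the length covariate and 8 to 73 leaving out a library.

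With the replicate block, 5862 genes were called between the compounds, 2347 higher and 3515 lower. Deviations of same-numbered libraries correlated by 0.52, 0.36 and 0.06 for numbers 1 to 3, and those of other pairs by -0.48 to 0.29. The labels do not say that the numbers pair the samples, so the main test took no pairs. Whether the numbers mark a batch was not tested.

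With the ribosomal reference the sign turned for GTF2H3 (-0.0043), LARP7 (-0.0795), POLR2E (-0.0669), NFKBIB (-0.0749), DHCR7 (-0.0024), SPINT2 (-0.0151), TAGLN (-0.0882), ZNF880 (-0.0066), MRPS10 (-0.0495), CCNH (-0.1767) and MNAT1 (-0.184). The compound by time interaction turned negative with that reference for HPS6 (-0.5437), FADD (-0.4795), PPP1R10 (-0.2613), IER3 (-0.5383), HMGN5 (-0.4118) and SHTN1 (-1.6093), and with library totals for SHTN1 (-0.2553). CCNK ranged from -0.5359 to 0.0603, the latter without THZ1 replicate 1. Of the 111 named genes called, 58 kept call and direction under every setting tried for them. With the ribosomal reference 42 others kept their sign and lost the call, and with library totals 39 did. Genes under about 1 CPM rest on few counts, which limits their fold values. For these changes the cause was not tested.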

Other observations

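Outside the protein-coding genes, 129 of 645 antisense genes and 104 of 564 lincRNA genes (18.4%) were lower in THZ1 than in YKL-5-124. In the same order, 6 and 9 were higher. Over all genes tested 21.9% were lower and 11.4% higher, so both classes lay under both of these shares. Of 339 processed pseudogenes, 2.65% were lower and 7.67% higher, with a median log2 difference of 0.32. In all, 22 genes were at least 4-fold higher in THZ1, 9 of them protein-coding and none above a mean of 1.03 CPM over the 6 libraries. Chosen after its values were seen, the processed pseudogene CHMP4BP1, which lies within FBXO34 on chromosome 14, had 32, 46 and 35 counts in the THZ1 libraries and 0 in each YKL-5-124 library. COL10A1, which overlaps NT5DC1 on the opposite strand, had 14, 18 and 6 counts in THZ1 and 0, 0 and 1 in YKL-5-124. FAM166A, which overlaps TUBB4B on the opposite strand, had 16, 15 and 19 counts in THZ1 and 0, 2 and 0 in YKL-5-124. All 3 lie over another tested gene, and which gene the reads came from was not tested.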
